A study of Coprinopsis cinerea with 7 samples.

Results

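The interior of chromosome 9 of the ink cap mushroom Coprinopsis cinerea was examined for DNA recovered with an antiserum against cytosine-5-methylenesulfonate (CMS). It was taken as all 300 bp windows of chromosome 9 that start beyond the first 20000 bp and stop at least 20000 bp before the last window ends. The rule kept 8155 of the 120537 windows in the table (6.77%), from position 20101 to position 2466600 of chromosome 9, or 2.45 Mb. It used position alone and no measured value.

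All 7 libraries of the study came from genomic DNA of oidia, the asexual spores of this fungus, and the labels name no strain, mutation or treatment. In 5 of them CMS-containing fragments were pulled down with a non-commercial anti-CMS antiserum, from biological replicate 1 (3 libraries) and biological replicate 2 (2 libraries). The other 2 are input DNA that was not pulled down, 1 for each biological replicate. The deposited tables hold 4 count columns each, here called IP 1_1, IP B_1, input 1_1 and input B_1. In 1 of the tables (the multi-mapped table below) the names of the IP columns do not hold the word IP. These columns were taken as IP because they lack the word input that the others carry. No label ties the tags 1_1 and B_1 to a biological replicate, and whether the technical libraries of the IP were merged is not stated. The p-values below thus measure the spread between columns, which may be technical.

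5-Hydroxymethylcytosine is formed when enzymes of the TET/JBP family oxidise 5-methylcytosine, the methylated form of the base cytosine. Sodium bisulfite turns 5-hydroxymethylcytosine into CMS, so an antibody against CMS recovers fragments that carried the oxidised base. The genome of C. cinerea encodes many TET/JBP proteins, and in this fungus cytosine methylation is found mainly on repeats and transposons.

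The interior of chromosome 9 held 7129013 counts in IP 1_1 and 4584927 in IP B_1, and 2359304 in input 1_1 and 2370814 in input B_1. The median window held 744 and 466 counts for IP and 272 and 280 for input. A total of at least 10 counts over the 4 columns was reached by 8074 windows (99.0%). Of the 81 windows below it, 32 lay between 50001 and 100000 and 20 between 2300001 and 2350000, and 18 had no count at all. Those 81 windows were not empty in a second table, whose name refers to multiple mapped and unique reads (here the multi-mapped table): their median summed input count there was 956, against 421 in the tested windows.

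Anti-CMS IP was above input in about 1 in 8 windows of the interior, and the excess was mostly small. Of the tested windows, 1002 (12.4%) were higher in IP by edgeR's quasi-likelihood test at a Benjamini-Hochberg adjusted p under 0.05, adjusted over all windows of the table, of which 8.75% were higher. The median higher window had 1.56 times the input. At least 2-fold higher were 206 windows, against 1.8% of all windows, and at least 4-fold higher were 75, against 0.632% of all windows. Lower in IP were 69 windows (0.855%, against 0.640% of all windows), with a median of 0.731 times the input. None of them fell to 0.5 of the input or below: edgeR gave 0 such windows with or without adjustment of p, and the DESeq2 Wald test also gave 0.

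The balance of higher and lower calls rested on the scaling. With trimmed-mean (TMM) scaling 93.6% of the called windows were higher, whereas with library totals 687 windows were higher and 504 lower (57.7% higher), and the middle of the log2 fold changes over the whole table shifted from -0.012 to -0.155. The 687 were all among the 1002. Single columns also moved the counts: leaving out IP 1_1 gave 1505 higher windows and 710 lower ones, and leaving out IP B_1 gave 430 lower ones. Leaving out input 1_1 gave 615 and 1, and for input B_1 the counts were 495 and 11.

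Higher windows were more frequent here than in the other 12 interiors pooled, which had 7.98%, and single chromosomes ranged from 4.43% on chromosome 5 to 13.1% on chromosome 6. Chromosome 9 lay between chromosome 6 and chromosome 12 (12.1%), and its share at 4-fold or more was 0.929%, against 0.611% in the other interiors. At 4-fold or more, single chromosomes ranged from 0.286% on chromosome 1 to 1.43% on chromosome 13. Windows of a chromosome share their libraries and their neighbours, so these differences between chromosomes were not tested. In the authors' deposited table, 410 windows of the interior of chromosome 9 were higher in IP and 0 were lower (3.26% of the whole table higher), and all 410 were among the 1002.

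A larger part of the reads lay in the higher windows in the IP columns than in the inputs. The 1002 windows took 24.3% of the chromosome 9 interior counts in IP 1_1 (95% Wilson interval 24.25 to 24.32) and 27.8% in IP B_1 (27.76 to 27.84). They took 14.8% in input 1_1 (14.72 to 14.81) and 14.5% in input B_1 (14.43 to 14.52). The 75 windows at 4-fold or more took 5.02% and 7.00% of the IP counts and 0.719% and 0.688% of the input counts. These windows were chosen by the same columns, so the shares are a description, and the intervals cover counting error only.

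The multi-mapped table gave the same picture at a smaller scale. There 889 windows (10.9%) were higher, against 7.0% of all windows, and 69 were lower, against 0.816%. At least 2-fold higher were 57, against 0.438% of all windows, and 0 reached 4-fold. Higher in both tables were 726 windows, which are 72.5% of those from the first (primary) table and 81.7% of those from the multi-mapped table. Over all windows 5.63% were higher in both. All 1002 higher windows of the primary table had more IP than input in the multi-mapped table as well, and all 69 lower ones had less. The tables cover the same windows with the same column tags, and no label states which libraries each IP column holds. Libraries may be shared between the tables, so they were not taken as independent of each other. Without input 1_1 or input B_1, 345 and 324 windows were higher in both tables, and the multi-mapped table alone then had 465 and 404. Without IP 1_1 it had 1383. Its lower windows numbered 25 when IP B_1 was left out, 24 for input 1_1 and 15 for input B_1. In the authors' deposited table of multi-mapped counts, 332 windows were higher (3.21% over the whole table), of which 271 were among the 889.

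**Figure D1:**
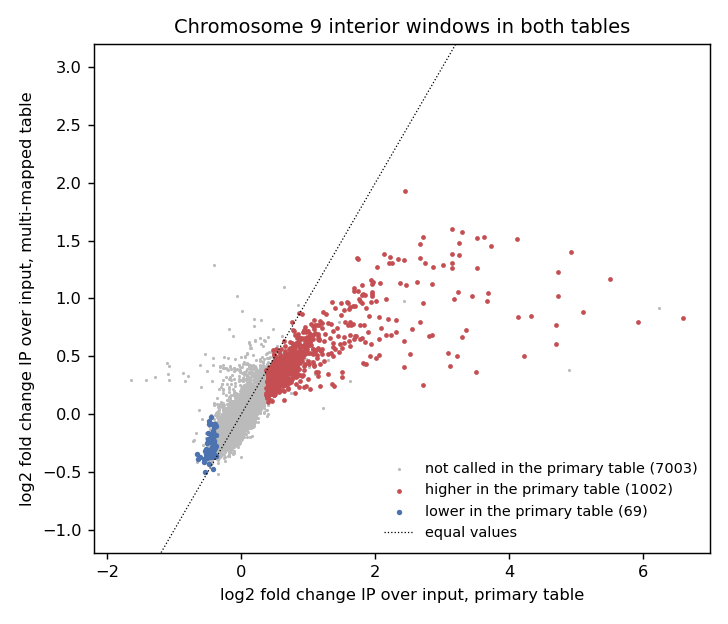
Each point is a tested window of the chromosome 9 interior, with its log2 fold change of IP over input in the primary table on the x axis and its multi-mapped value on the y axis. The 1002 higher windows (red) lie above 0 on both axes, and the highest of them are far below the dotted line of equal values.

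Fold changes in the 2 tables parted where enrichment was high. The 75 windows at 4-fold or more had a median of 7.22-fold in the primary table and 2.02-fold in the multi-mapped table. The median ratio of the multi-mapped count to the primary count was 0.0987 in IP 1_1 and 0.891 in input 1_1 for these windows, while it was 0.229 and 0.749 in windows that were not called. In both sets of windows the IP count was further from its primary value than the input count. The 75 windows were chosen by their primary fold, so a lower fold and IP ratio in the multi-mapped table partly follow from that choice. The multi-mapped IP 1_1 counts of the 75 windows ran from 147 to 849, with a median of 351, and their primary counts reached 18086. Over all windows of the series, no multi-mapped count of IP 1_1 exceeded 1070, against a primary maximum of 156436. The other columns had similar multi-mapped maxima. They were 1035 for IP B_1 (162928 in the primary table), 1071 for input 1_1 (42227) and 1053 for input B_1 (44853).

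Higher windows were unevenly spread along the chromosome. Of 50 bins of 50 kb, 9 had no higher window and 10 had more than 25% of their tested windows higher; those 10 bins held 579 of the 1002 (57.8%). The median bin had 5.12%. The densest bin, from 200001 to 250000, had 47.9% (80 of 167 windows). It was followed by the bin from 900001 to 950000 with 41.8%, the bin from 350001 to 400000 with 41.0% and the bin from 2250001 to 2300000 with 40.7%.

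The dense bins differed in gene content. In the densest bin 71.9% of window midpoints lay inside a gene, above the median bin of 63.9%, whereas in the bin from 2250001 to 2300000 only 19.8% did. Over the 50 bins the Spearman correlation of the share of higher windows with the share inside genes was -0.51, and the shares in the primary and the multi-mapped table had a correlation of 0.93. Neighbouring bins share their libraries and the tables may share their reads, so both values are descriptions.

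**Figure D2:**
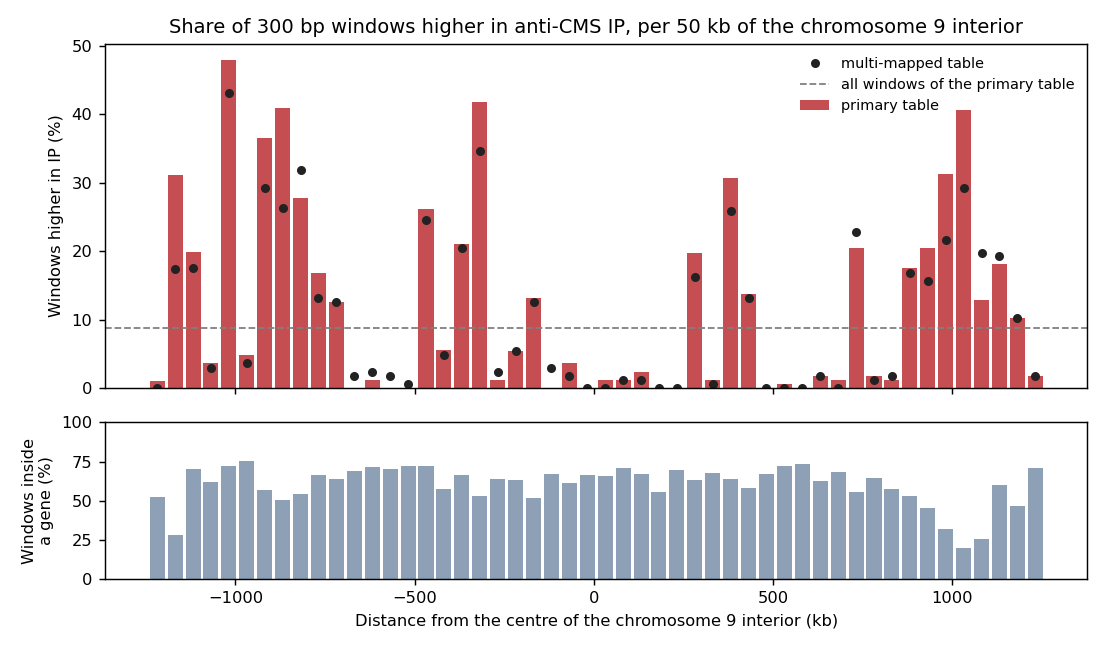
The upper panel gives the share of tested windows higher in IP for each 50 kb bin of the chromosome 9 interior (bars, primary table; points, multi-mapped table; dashed line, 8.75% over all windows), and the lower panel the share of window midpoints inside genes, both against distance from the centre of the interior in kb. The 10 bins above 25% stand in several separate groups on both arms, with low stretches between them.

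Long stretches had no higher window. There were 8 stretches over 50 kb, 0.757 Mb in all or 30.9% of the interior. The longest ran from 612001 to 750000 (138 kb), the next from 1398301 to 1524300 (126 kb) and the third from 1761301 to 1886700 (125 kb). In these 3 stretches 71.7%, 63.6% and 70.8% of window midpoints lay in genes, and they held 7, 3 and 8 lower windows. By the multi-mapped table, the first of them had 4 higher windows and the others 0 (edgeR). The longest stretch ended where the longest enriched region began, and the second stretch ended where the second longest region began. In the last bin of the longest stretch, from 700001 to 750000, 7 windows were under the count minimum and could not be called.

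Near the ends of the interior the 2 arms differed. Between 50 and 100 kb from the left end of the chromosome 31.1% of tested windows were higher, and between 50 and 100 kb from the right end 4.19%. Between 20 and 50 kb the order was the other way, 1.0% on the left and 16.0% on the right. With both arms together, the share between 20 and 100 kb from the ends was 13.1%, and it was also 13.1% in the other 12 interiors. Beyond 100 kb from either end the share was 12.4%, against 7.67% in the other 12 interiors. The higher share of chromosome 9 thus lay beyond 100 kb and not in its outer bands. Across the 20 kb boundary, the last window left out on the left (19801 to 20100) had a log2 fold change of 0.01 and the first one kept (20101 to 20400) one of -0.06. On the right the last kept window (2466301 to 2466600) had 0.30 and the first left out (2466601 to 2466900) 0.76. The 134 windows left out at both ends had 28.0% higher windows (37 of 132 tested).

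Genes were placed with the CC3 assembly's RefSeq table, which gives locus tags and gene types and no product names, so no function is given for the protein-coding genes below. Windows outside genes were more often higher. With the midpoint inside a gene 473 of 4881 tested windows were higher (9.69%), and outside genes 529 of 3193 (16.6%). The share rose away from genes, from 12.1% within 300 bp through 16.6% beyond that and up to 1000 bp and 21.9% up to 2000 bp to 26.8% up to 4000 bp. Over 4000 bp from a gene it was 35.1% (27 of 77 windows). With multi-mapped counts the order was kept up to 2000 bp (11.5%, 15.7% and 21.1%) and turned beyond it, with 19.5% up to 4000 bp and 9.30% over 4000 bp.

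The most enriched and the depleted windows sat on opposite sides of this division. Of the 75 windows at 4-fold or more, 74.7% lay outside genes, where 39.5% of the tested windows lay. Of the 69 lower windows, 62 (89.9%) lay inside genes. The same division held in the other 12 interiors, where these shares were 62.4% and 84.6%, with 33.9% of tested windows outside genes. In the interiors of the other chromosomes 5.70% of windows inside genes and 12.4% outside were higher, a ratio of 2.18 against 1.71 on chromosome 9. The corresponding ratios of the multi-mapped table were 2.16 and 1.78.

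**Figure D3:**
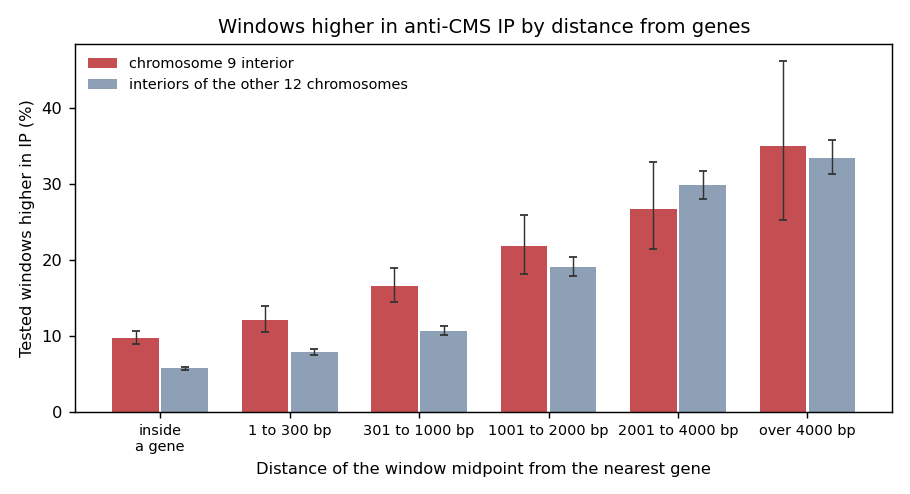
Bars give the percentage of tested windows higher in IP by the distance of the window midpoint from the nearest gene, for the chromosome 9 interior (red) and the interiors of the other 12 chromosomes (grey), with 95% Wilson intervals that cover counting error only. On chromosome 9 the bars rise from 9.69% inside genes to 35.1% over 4000 bp, and the bars of the other chromosomes are lower inside genes and up to 2000 bp.

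The higher windows were mostly gathered into runs. Merging called windows over gaps of at most 1 window gave 107 regions of at least 3 called windows that lay wholly in the interior. They had a median length of 1800 bp, covered 274.8 kb (11.2% of the interior) and held 861 of the 1002 windows (85.9%), while 77 windows stood alone. Without input B_1 there were 61 regions. Regions of the other chromosomes are not given here, so these counts have no share beside them. In all 107 regions both IP columns were above both inputs. The regions were chosen by these columns, so their values carry no test. Folds of regions, from summed counts scaled to library size (CPM), ran from 1.32 to 19.2 with a median of 1.56; 30 regions reached 2-fold and 8 reached 4-fold. Of the 107, 24 touched no gene, and 98 held at least 1 window that was higher in the multi-mapped table too, where their folds ran from 1.16 to 2.16. IP B_1 was above IP 1_1 in 92.

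The longest region, from 750001 to 761400 (11400 bp), ran over the genes from CC1G_02416 to CC1G_02420, held 1 of the 3 windows of CC1G_02421 and met CC1G_02415 at its left edge. Its CPM was 841 in IP 1_1 and 981 in IP B_1, and 507 and 496 in the inputs, a fold of 1.82. Both IP columns were above both inputs, and 37 of its 38 windows were called. The enrichment was uneven along it: the first 3 windows, from 750001 to 750900, had a median of 8.48-fold and reached 10.8-fold. In the other 35 the median was 1.53-fold and the highest 2.14-fold.

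The second longest region, from 1524301 to 1534500 (10200 bp), was also highest at its left end. Its CPM was 729 and 817 for IP and 325 and 292 for input, 2.51-fold, with no overlap of the groups. Its first 4 windows, from 1524301 to 1525500, held medians of 5500 and 4000 counts in IP 1_1 and IP B_1 and 244 and 208 in the inputs, and reached 12.6-fold. The remaining 30 windows had a median of 1.67-fold and reached 3.86-fold, and the last 4 of them, at the right end, had at least 2.22-fold. It touched the tRNA gene CC1G_20178 at its start and the protein-coding gene CC1G_15189.

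The other 8 of the 10 longest regions were between 5100 and 8400 bp. The third longest, from 1644001 to 1652400, was evenly low, with CPM of 487 and 554 against 361 and 348 (1.47-fold), and its highest window reached 1.85-fold. Similar in form were the regions starting at 218401 (1.49-fold over 7800 bp), 464701 (1.56-fold over 8100 bp) and 306301 (1.61-fold over 6300 bp), with highest windows of 1.83-, 2.36- and 2.21-fold. The regions at 203701 (1.65-fold), 410101 (1.69-fold) and 1633801 (2.49-fold) held sharper windows of 6.54-, 3.23- and 9.81-fold. The remaining long region, from 1060201 to 1065600, was also among the 10 highest.

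**Figure D4:**
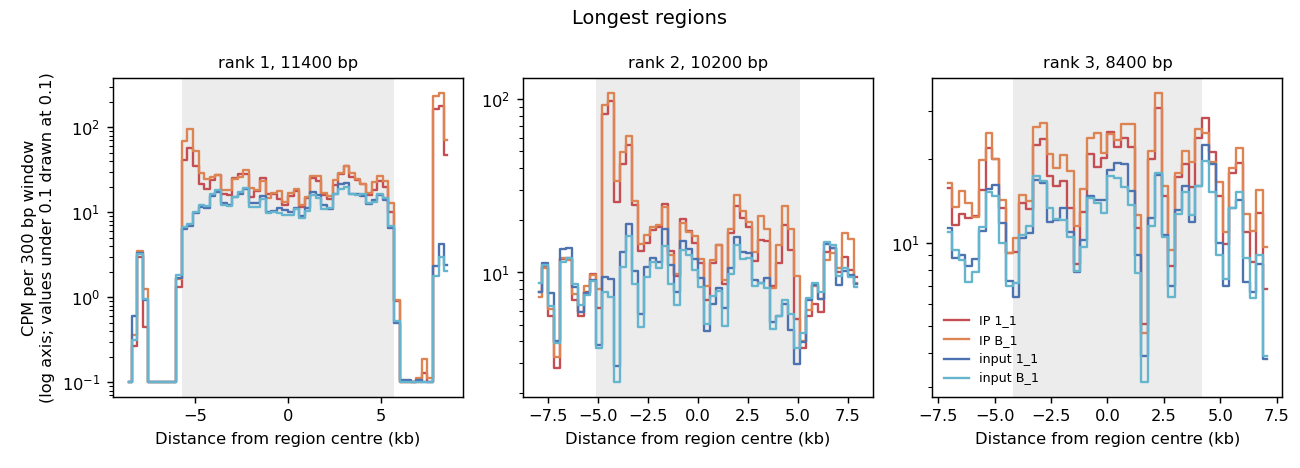
CPM per 300 bp window (log axis, values under 0.1 drawn at 0.1) in the 4 columns of the primary table along the 3 longest regions (grey, 11400, 10200 and 8400 bp) and their flanks, against distance from the region centre in kb. In the first 2 panels the IP columns stand far above the inputs at the left end of the region and closer to them over most of the rest, with a second, smaller rise at the right end of the middle panel, and in the panel on the right they stay close throughout.

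Just beyond the longest region lay one of the sharpest peaks of the interior. The 7 windows between them, from 761401 to 763500, held 123, 85, 34 and 22 counts in IP 1_1, IP B_1, input 1_1 and input B_1 of the primary table, and their multi-mapped counts were 4353, 4484, 3349 and 2961. Among these windows, 3 were under the count minimum. In the region that follows, from 763501 to 765300, CPM was 418 and 597 for IP and 26.8 and 27.3 for input, 18.8-fold in the primary table and 1.64-fold in the multi-mapped one.

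The highest window of the interior opened that region. From 763501 to 763800, inside the gene CC1G_02422, its IP 1_1 and IP B_1 counts were 16593 and 14893, against 89 and 68 in the inputs. The IP columns were higher by a log2 fold change of 6.59 ± 0.30 (SE), with an adjusted p of 1.03e-07 by edgeR. The same window of the multi-mapped table held 614 and 622 against 517 and 421 counts, 1.77-fold (edgeR adjusted p of 7.96e-05). The next window, from 763801 to 764100, held 18086 and 16101 against 158 and 113 counts, a log2 fold change of 5.92 ± 0.30 (edgeR adjusted p of 1.37e-07). This second window had the larger IP counts and the smaller fold.

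The region whose windows had the highest mean log2 fold change lay between genes, from 2373001 to 2374500, with CC1G_11922 and CC1G_09973 as its neighbours. Its CPM was 294 in IP 1_1 and 449 in IP B_1 against 20.5 and 18.2 in the inputs, 19.2-fold (IP 372 ± 110, input 19.4 ± 1.67, SD, n = 2 columns). All 5 of its windows were called, from 7.22-fold to 34.4-fold. Its multi-mapped fold was 2.16, the highest of the 107 regions there. Its last 2 windows were among the 5 highest of the interior: 2373901 to 2374200 held 11561 and 10936 counts against 196 and 161, and 2374201 to 2374500 held 11025 and 10520 against 156 and 147.

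The remaining window of those 5 lay at the end of the region from 1060201 to 1065600. It spans 1065001 to 1065300, 1494 bp from the nearest gene, with IP counts of 11274 and 12583 against input counts of 114 and 145. Its log2 fold change was 5.50 ± 0.31 (edgeR adjusted p of 2.03e-07), and 1.17 in the multi-mapped table. Here IP B_1 had the larger count although its library was the smaller. The whole region had CPM of 565 and 815 against 85.4 and 79.8, 8.36-fold, and touched CC1G_02528, CC1G_15168 and CC1G_02529.

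A pair of sharp regions stood close together on the left arm. The region from 58501 to 59400 had CPM of 283 and 334 for IP and 29.9 and 22.9 for input (11.7-fold), and lay between CC1G_15105 and CC1G_06994. The region from 61201 to 62100 had 184 and 230 against 40.3 and 34.7 (5.52-fold) and touched CC1G_06994 and CC1G_15106. Both were well above the inputs in each IP column. Their multi-mapped folds were 1.32 and 1.44, and the columns of IP and input again did not overlap.

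The other 5 of the 10 highest regions ran from 2.82-fold to 6.56-fold. Those from 2220301 to 2222400 (6.56-fold, in CC1G_08520 and up to the edge of CC1G_08521) and from 540601 to 544500 (4.70-fold, at CC1G_15136 and CC1G_15137) overlapped genes. Those starting at 2210701 (4.43-fold) and 426001 (2.82-fold) touched none. The region from 2318401 to 2319300 (3.70-fold) met a lower region at its right edge. The lower region held all 3 windows of CC1G_13357, which the higher one met at its edge. Over that boundary CPM went from 65.6 and 84.0 in IP against at most 20.4 in input to 26.0 and 25.1 in IP against 35.0 and 35.9 in input, so the order of IP and input turned at the edge of the gene.

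**Figure D5:**
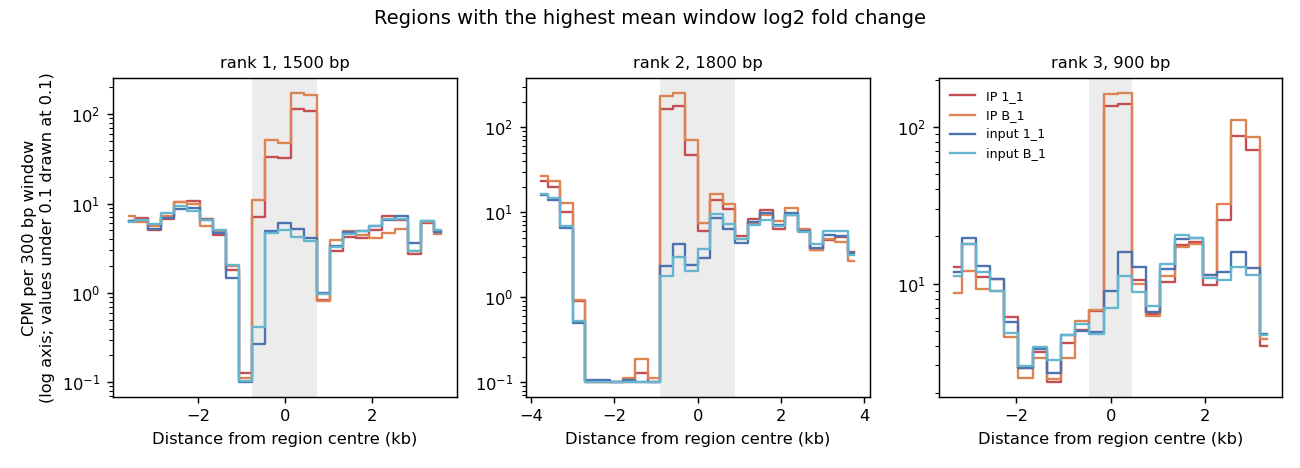
CPM per 300 bp window (log axis, values under 0.1 drawn at 0.1) in the 4 columns of the primary table along the 3 highest regions by mean log2 fold change of their windows (grey, 1500, 1800 and 900 bp) and their flanks, against distance from the region centre in kb. In each region both IP columns reach over 100 CPM while the inputs stay at or below 16, and a second region appears at the right edge of the third panel.

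IP B_1 exceeded IP 1_1 in most higher windows. After scaling it was the larger in 830 of 1002 (82.8%), in 74 of the 75 windows at 4-fold or more, where the median ratio was 1.51, and in 36.2% of the lower windows. In windows that were not called the share was 49.2%, and for the input pair in higher windows it was 40.1%. By multi-mapped counts the share in the same 1002 windows was 88.9%. The interiors of the other 12 chromosomes were similar in the primary table. There IP B_1 was the larger in 78.3% of higher windows and in 98.5% of those at 4-fold or more, with a median ratio of 1.46 in the latter. The IP columns also differed more than the inputs over the interior, with a chi-square per degree of freedom of 10.3 against 1.83 in the primary table. The multi-mapped values were 1.47 and 0.863, so the 2 inputs there differed by less than the sampling noise. With these inputs counted as 1 sample, 614 windows of the multi-mapped table were higher and 52 lower.

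Lower windows differed from input by less, and 15 regions of at least 2 adjacent lower windows were found. The lowest, from 2451601 to 2452200 in CC1G_10010, had CPM of 11.5 and 11.8 for IP and 17.6 and 16.9 for input, 0.676 of the input. The next 4, from 0.701 to 0.719, started at 1073401 in CC1G_02533, 713401 in CC1G_15146, 252901 in CC1G_09360 and 655201 in CC1G_10711. In all 5 both IP columns were below both inputs. Lower regions of the other chromosomes are not given here, so the count of 15 has no share beside it. Of the 69 lower windows, edgeR kept 6 at an adjusted p under 0.01, and the DESeq2 Wald test gave 16 lower windows. Lower regions were not counted in these settings.

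The 5 lowest single windows held their direction and not their call. The lowest, from 2451601 to 2451900, had IP counts of 375 and 256 and input counts of 229 and 233, a log2 fold change of -0.66 ± 0.14 after scaling (edgeR adjusted p of 0.00691). The other 4 ranged from -0.65 to -0.55. Without input 1_1 or without input B_1 none of the 5 passed edgeR's test, with adjusted p from 0.052 to 0.483, and 3 of the 5 did not pass in the multi-mapped table.

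Summed over genes, 133 of 844 tested genes (15.8%) were higher in IP, against 11.2% of all genes, by edgeR's test adjusted over all genes. CPM values of genes are scaled to the counts in genes alone, a smaller total than that of the window table, so they are larger than those of windows and regions for the same counts and cannot be set beside them. At least 2-fold higher were 12, against 1.47% of all genes, and 7 were lower, against 0.544%. Another 2 genes had too few counts. By multi-mapped counts 135 were higher, 121 of them the same genes, and 5 lower, 4 of them the same. Of the 133, 52 had all their windows called, 80 a part of them and 1 none. Many higher genes stood next to each other: 18 runs of at least 3 neighbouring higher genes held 90 of the 133. The longest runs, from CC1G_15122 to CC1G_09386 and from CC1G_02416 to CC1G_02423, had 8 each. Runs of genes on the other chromosomes are not given here, so these counts have no share beside them.

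In the primary table CC1G_02422 stood apart from the other genes of the interior. Its 5 windows summed to 34708 and 31020 counts for IP and 252 and 182 for input (522, 754, 10.1 and 7.14 CPM of the counts in genes), 74.0-fold (log2 6.21 ± 0.21, edgeR adjusted p of 1.51e-07). Its multi-mapped fold was 1.94 (edgeR adjusted p of 9.37e-05), less than that of CC1G_07456 (2.11) or CC1G_15206 (2.09). Its neighbours in the run had 1.51- to 1.80-fold: CC1G_02416, for example, had 455 ± 46.0 CPM (SD, n = 2) in IP against 252 ± 0.355 in input, and CC1G_02423 had 1.71-fold. Of the 5 windows of CC1G_02422, 2 were called.

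Of the 12 genes at 2-fold or more, the next after it was CC1G_02528, with 62.8 and 90.5 CPM against 18.5 and 18.2 (4.16-fold, edgeR adjusted p of 1.94e-05). CC1G_15206 had 3318 and 2789 counts against 394 and 356 (3.94-fold), and CC1G_08520 had 268 and 382 CPM against 82.3 and 83.5 (3.92-fold). In each the IP columns exceeded both inputs, which was a condition for naming the highest genes. The rest ran from 3.91-fold in CC1G_15106 through CC1G_07456 (3.56), CC1G_15137 (3.39), CC1G_02489 (2.74), CC1G_15156 (2.48), CC1G_15136 (2.26) and CC1G_02529 (2.15) to CC1G_08523 (2.13). CC1G_15106 did not pass in the multi-mapped table (1.11-fold, edgeR adjusted p of 0.237), and CC1G_02529 not without input 1_1 (edgeR adjusted p of 0.0672). The other 11 of the 12 passed in both tables.

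Several genes met a named region at its edge and did not pass. Except for CC1G_06994, the windows summed for them lie outside the region. CC1G_08521, right of the region that holds CC1G_08520, had 98.5 ± 4.11 CPM (SD, n = 2) in IP and 111 ± 0.387 in input (edgeR adjusted p of 0.12). CC1G_07428, right of the region at 410101, had 53.1 ± 10.8 and 51.6 ± 2.19 (edgeR adjusted p of 0.913). CC1G_02415, left of the longest region, had a log2 fold change of -0.13 ± 0.16 (SE; edgeR adjusted p of 0.745). CC1G_06994, with 1 of its 6 windows in the region from 61201 to 62100, did not pass either (1.15-fold, edgeR adjusted p of 0.0672).

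The lowest gene was CC1G_13357, with 2654 and 1589 counts for IP and 1319 and 1375 for input (39.9, 38.6, 52.9 and 53.9 CPM of the counts in genes). It was 0.736 of the input (edgeR adjusted p of 0.00186), all 3 of its windows were lower, and it also passed in the multi-mapped table (edgeR adjusted p of 0.00572). CC1G_03495, CC1G_09983, CC1G_03578 and CC1G_10010 had 0.786 to 0.840 of the input. The first 3 of these did not pass with either input left out (edgeR adjusted p from 0.121 to 0.396), and CC1G_10010 not without input 1_1 (edgeR adjusted p of 0.344). By multi-mapped counts CC1G_09983 and CC1G_03578 did not pass (edgeR adjusted p of 0.112 and 0.114), and CC1G_03578 did not pass the DESeq2 Wald test of the primary table (adjusted p of 0.0506). Over the interior the 7 lower genes became 72 when IP 1_1 was left out, 27 for IP B_1 and 1 for input 1_1. They were 74 with library totals.

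Transfer RNA genes were the 1 gene class that the table names here; it lists 8 on chromosome 9, of which 3 hold a window midpoint in the interior. CC1G_20178 had 9.54 and 12.4 CPM for IP and 5.73 and 5.53 for input, 1.93-fold (edgeR adjusted p of 0.00257), and 1.48-fold in the multi-mapped table. Its window is the first of the second longest region. CC1G_20179 (0.930 of the input, edgeR adjusted p of 0.757) and CC1G_20181 (1.03-fold, edgeR adjusted p of 0.921) did not pass.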

How the data were processed

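Libraries were made with an Illumina TruSeq kit from oidial DNA (DNeasy kit for plants), per the labels' protocols. Bismark 0.6.4, Bowtie 0.12.7 and edgeR are named in the submitters' processing notes. What each did, the genome build and any read filter are not given in the sources used. Of the authors' deposited tables, 2 were analysed, which hold whole-number counts of reads for windows of 300 bp, per the file headers. The deposited log2 fold changes (input over IP) and deposited adjusted p-values of the authors were used to count their calls, at an adjusted p under 0.05. The 8 RPKM columns were not used.

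Windows with at least 10 counts in total were tested with edgeR 4.0.16 (R 4.3.3; TMM scaling, quasi-likelihood test of 2 IP against 2 input columns, Benjamini-Hochberg adjustment over the whole table, threshold 0.05). DESeq2 1.42.0 was an alternative. SEs came from the quasi-likelihood F statistic, and CPM values are TMM-scaled. Whole-table totals of the primary table were 106176723 and 67181684 counts for IP 1_1 and IP B_1 and 36059418 and 36233140 for the inputs. Those of the multi-mapped table ran from 19994333 to 28735765. Gene values sum the windows whose midpoint lies in the gene, and their CPM uses the total over genes. On chromosome 9 the correlation of input counts with CC3 gene cover was highest at a shift of 0 windows (r = 0.242, against at most 0.100 beyond 10 windows), and printed coordinates are those of the window tables, for which no build is named. Named are the 10 longest and the 10 highest regions by mean window log2 fold change, the 5 lowest regions, the 5 highest and 5 lowest windows, the 12 highest genes with at least 50 counts, the 5 lowest genes, tRNA genes and genes in named regions. CC1G_02422's neighbours and other examples follow from these. The 10 highest regions and the 12 highest genes were taken among those with both IP columns above both inputs. Members, lists and tests were chosen with earlier results of these data known. The tests were tried on simulated counts. The planned description of GC and CpG content needs a genome sequence and was not run, and lists defined by product words were not analysed here.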

Additional observations from a re-analysis of the deposited data

How the results depend on the processing

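Counts of calls kept their direction throughout, and their size depended on the threshold, the scaling and single columns. At an adjusted p under 0.01, 628 windows were higher and 6 lower, 471 were higher in both tables, 15 were lower in the multi-mapped table, and 1 gene was lower. At 2-fold or more, 206 windows, 57 windows of the multi-mapped table, 12 genes and 29 regions were higher, and 0 windows of either table and 0 genes were lower (edgeR and DESeq2, 0 also at an unadjusted p under 0.05). With library totals 504 windows, 411 windows of the multi-mapped table and 74 genes were lower. The DESeq2 Wald test gave 16 lower windows, and 519 higher and 0 lower ones by multi-mapped counts (21 at an unadjusted p under 0.05; edgeR 69, and 474 unadjusted), with 346 higher in both tables. Leaving out 1 column at a time, with the remaining column of a group taken to vary like the other group, gave 495 to 1505 higher and 1 to 710 lower windows, 404 to 1383 and 15 to 55 by multi-mapped counts, 324 to 1018 higher in both, 61 to 120 regions, and 1 to 72 lower genes. Regions numbered 67 with gaps of up to 5 windows and 68 with at least 5 called windows. By multi-mapped counts, 8.32% of windows inside genes and 14.8% outside were higher, and IP B_1 was the larger IP column in 88.9%.

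The tags 1_1 and B_1 occur in IP and input. With the tag as a replicate block, 1313 windows were higher and 323 lower, and 40 genes were lower. The column differences of IP and input had a correlation of 0.162 over the interior (0.043 in the multi-mapped table), and with 2 numbers no pairing was shown.

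Genes that did not pass in either direction changed sign in places. CC1G_20181 had a log2 fold change of -0.06 with library totals and -0.05 to 0.14 without single columns. CC1G_07428 had -0.06 with library totals, -0.02 in the multi-mapped table and -0.18 to 0.24 without single columns. CC1G_02415 had 0.07 in the multi-mapped table and -0.33 to 0.08 without single columns. Of the 46 called genes named, 7 lost the call without input 1_1 and 4 without input B_1. Inputs had a median of 272 and 280 counts per window, which limits small differences. The multi-mapped table with its inputs as 1 sample, and the IP column comparison there, were added after seeing the data.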

Other observations

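Some higher windows lay close to windows under the count minimum of the primary table. Within 3 windows of such a window lay 33 of the 1002 higher windows (3.29%), 119 of the 7003 windows that were not called (1.70%) and 0 of the 69 lower ones. The multi-mapped input count was at least 2 times the primary one in 11.4% of the higher windows, 4.67% of the windows that were not called and 0 of the lower ones. The primary input count also enters the fold change behind the calls, so these shares partly follow from the calls and are a description. The reads' number of matches in the genome is not in these tables, and its part in these shares was not tested.

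A few windows with high ratios were too shallow to be called. From 762901 to 763200, close to the left edge of the region at CC1G_02422, the IP columns of the primary table held 13 and 12 counts and both inputs 0 (edgeR adjusted p of 0.0858). With multi-mapped counts this window had a log2 fold change of 0.92 (edgeR adjusted p of 0.000571). The window after it, from 763201 to 763500, held 6 and 7 counts against 1 and 0 (edgeR adjusted p of 0.46), with 0.97 in the multi-mapped table (edgeR adjusted p of 3.09e-05). Both were higher in the multi-mapped table and had fewer than 30 counts in the primary one.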
